A study of Mus musculus with 30 samples.

Results

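The genes described here encode the proteins of the cytoplasmic ribosome. They were chosen by symbol: 85 symbols of the count tables have the form of a ribosomal protein gene (Rpl or Rps with a number, or Rpsa, with no pseudogene and no S6 kinase gene), and 79 of these reached a mean of at least 10 CPM (counts divided by the library total and put on a common scale) over the 12 libraries of naive and activated cells. The 79 members, 48 of the large subunit and 31 of the small subunit, stand among 25865 symbols counted in naive and activated cells. All 79 passed the filter on low counts, in the fit of naive and activated libraries and in that of the forskolin libraries. Just above the limit stood Rpl6l at 93.1 CPM, Rps27l at 94.7 CPM and Rpl7l1 at 170 CPM, and just below it Rpl32l at 6.21 CPM, Rpl39 at 4.34 CPM and Rps4l at 1.36 CPM. Rpl39l (0.953 CPM), Rpl3l (0.0174 CPM) and Rpl10l (0 CPM) also fell below it.

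The series compared mouse CD4 T cells of control animals (WT) with those labelled as a knockout of protein kinase A (KO). The cells came from spleen and lymph nodes and were measured by RNA-seq as sorted naive cells, after 3 days of stimulation through CD3 and CD28, and after 3 days of rest in IL-7 followed by 4 h of forskolin at 1 µg/mL. Forskolin switches on adenylyl cyclase, which makes cyclic AMP, the ligand of protein kinase A. Open chromatin was measured by ATAC-seq in the naive and activated states only, and each of the 6 RNA groups and 4 ATAC groups held 3 libraries. The forskolin groups have no untreated rested group beside them, so only the genotypes are compared there. The labels give no driver of the knockout, strain, sex or age. Nor do they state that each library is a separate animal, and p-values therefore cover the spread among these libraries only. They also do not name the kinase gene removed. Prkaca, which encodes the main catalytic subunit, lay between 32.1 and 53.2 CPM in the 9 WT libraries and between 0.9 and 3.9 CPM in the 9 KO libraries.

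A ribosome joins a large and a small subunit, each built of ribosomal RNA and one copy of nearly every ribosomal protein. The mRNAs of these proteins begin with a run of pyrimidines, the terminal oligopyrimidine tract, through which LARP1 and the kinase mTOR set how strongly they are translated and how long they persist. A resting lymphocyte makes little protein, and a cell that enters division after antigen receptor signals builds many new ribosomes. The values below are mRNA levels and do not measure translation.

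The annotated start of several members shows this tract. The following 30-base windows, 15 bases before and 15 bases from the start on, are taken from RefSeq on GRCm38.p6 (the mm10 assembly), 5′ to 3′ on the gene's strand, with the run of C or T that holds the first transcribed base in capitals. They are shown for some of the members that moved furthest on activation in either direction, for Rps28 (the only member called between genotypes in activated cells) and for Rps6, whose protein is the classical substrate of S6 kinase.
Rps27: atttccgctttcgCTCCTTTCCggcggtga
Rps7: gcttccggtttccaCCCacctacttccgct
Rps21: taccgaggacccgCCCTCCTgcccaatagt
Rps15a: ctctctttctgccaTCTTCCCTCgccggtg
Rps16: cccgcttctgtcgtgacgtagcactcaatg
Rps28: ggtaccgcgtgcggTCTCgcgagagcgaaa
Rps6: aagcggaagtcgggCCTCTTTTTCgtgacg
Rps27l: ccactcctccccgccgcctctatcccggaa
Rpl7l1: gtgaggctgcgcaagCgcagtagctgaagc
Rps2: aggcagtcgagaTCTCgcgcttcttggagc
Rps27 (chr3:90213634-90213663) carries a run of 9 pyrimidines, Rps15a (chr7:118116133-118116162) also 9, Rps6 (chr4:86857353-86857382) 10 and Rps21 (chr2:180257364-180257393) 7. Rps28 (chr17:33824548-33824577) and Rps2 (chr17:24720048-24720077) carry 4, Rps7 (chr12:28635939-28635968) 3 and Rpl7l1 (chr17:46782642-46782671) 1. At the annotated start of Rps27l (chr9:66946071-66946100) the first base is G, and at that of Rps16 (chr7:28350674-28350703) it is A, so neither window has a run at that base. Each window shows 1 annotated start, and the annotated spans of Rps27l and Rps2 begin further upstream. The promoter table held 58 of the 79 members, with 69 start windows. A run of at least 5 pyrimidines at the start was present in 19 of those windows (27.5%) and in 10.1% of 32851 windows of all genes, and a run of at least 8 in 17 windows (24.6%) against 3.86%. The 19 members with a run of at least 5 had a median WT activation difference of -0.90 (log2), and the others -0.73. An annotated start that is off by a few bases changes such a run, so these counts describe the annotation.

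RNA libraries held 7665955 to 11950488 counts with a symbol. Members took between 8.65% and 15.9% of the counts of a library, and pseudogene symbols of these genes a further 131 to 334 CPM. Reads that fit both a gene and a processed copy could be divided or lost in the authors' counting, so the level of a single member is uncertain. Markers of CD4 T cells summed to 2290 to 5336 CPM and were detected in every group. Markers of B cells summed to 316 to 333 CPM in naive cells, to 103 to 127 CPM in activated WT and 160 to 188 CPM in activated KO cells, and to 171 to 192 CPM in forskolin WT and 323 to 335 CPM in forskolin KO cells. Replicate 1 of the naive and activated groups had Ddx3y and almost no Xist, replicates 2 and 3 the reverse, in each genotype, and in the forskolin groups replicate 3 was the library with Ddx3y. The libraries of a group thus come from animals of each sex, and not from a single animal. The libraries naive WT 3 and naive KO 2 stood apart in ribosomal protein counts, and also held 9231 and 4922 CPM of Rn45s, the ribosomal RNA precursor, against 2515 to 3374 CPM in the other 4 naive libraries. Activated KO 2 held 6191 CPM of Rn45s with no raised share of ribosomal protein counts. The part of any of these in the results was not tested.

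In naive WT cells the members took 13.1%, 12.3% and 15.9% of library counts (13.8% ± 1.90, SD, n = 3), and in naive KO cells 12.5%, 14.9% and 13.2% (13.6% ± 1.25, n = 3). In activated WT cells the shares were 8.92%, 8.65% and 8.70% (8.76% ± 0.144, n = 3), and in activated KO cells 9.91%, 9.90% and 10.1% (9.97% ± 0.111, n = 3). Every activated library lay below every naive library, and every activated KO library above every activated WT library. The forskolin libraries held 10.08%, 10.29% and 10.04% in WT (10.1% ± 0.137, n = 3) and 10.03%, 10.29% and 10.35% in KO (10.2% ± 0.172, n = 3), with overlapping genotypes. The difference on activation was -5.03 percentage points in WT (ratio 0.635) and -3.59 points in KO (ratio 0.735), each with p = 0.1 by the two-sided exact permutation test, the smallest p that 3 against 3 libraries allow. The genotype difference in activated cells was 1.21 points (ratio 1.14), also with exact permutation p = 0.1. In naive cells it was -0.23 points (exact permutation p = 0.9) and after forskolin 0.087 points (exact permutation p = 0.7). Adjusted over these 5 comparisons, the exact permutation p-values were 0.167 for the first 3, 0.9 for naive and 0.875 for forskolin cells. A share is relative to the other RNA of the library, so fewer ribosomal protein mRNAs per cell and more of other mRNAs cannot be told apart.

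**Figure D1:**
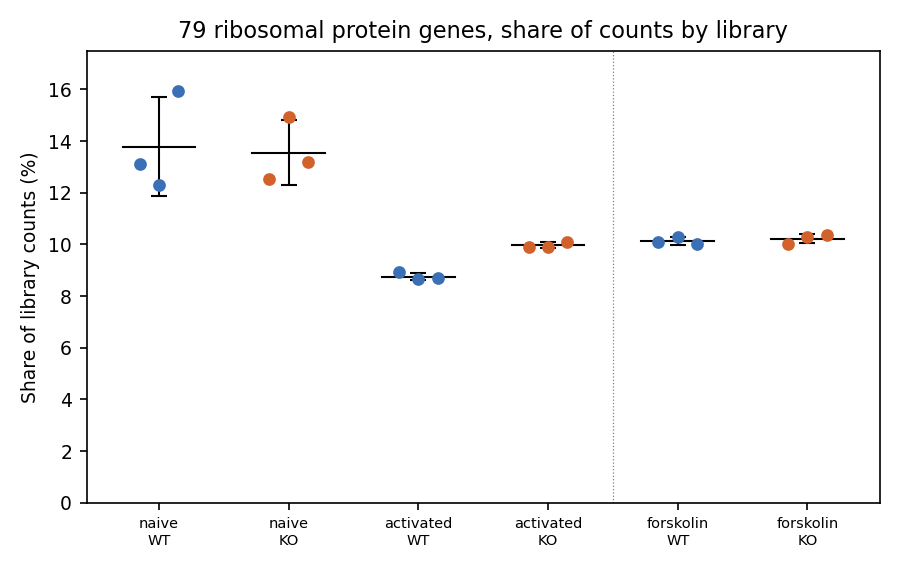
Share of library counts taken by the 79 ribosomal protein genes (y axis, percent) in each of the 18 RNA libraries (points; blue WT, orange KO), with the group mean and SD (bars, n = 3). Activated KO libraries sit between 9.90% and 10.1%, above the 3 activated WT libraries at 8.65% to 8.92%; the dotted line separates the forskolin libraries, which come from another count table.

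Most members fell on activation in WT cells. Of 79 members, 66 fell and 3 rose in edgeR's quasi-likelihood test (Benjamini-Hochberg adjusted p under 0.05 over all genes), against 40.3% of all 11980 genes tested that fell and 42.3% that rose. The median difference was -0.78 (log2), with 0.035 over all genes. The small subunit had a median of -0.93 (26 fell, 2 rose, of 31) and the large subunit -0.67 (40 fell, 1 rose, of 48). Members that did not pass the test numbered 10, among them Rps26 (0.01 ± 0.08, SE), Rpl7a (-0.02 ± 0.08) and Rps12 (-0.11 ± 0.10).

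The largest fall was that of Rps27, a small-subunit protein with a zinc finger (chr3:90212667-90213648, GRCm38.p6). Its level, in CPM scaled by TMM (a factor per library that evens out composition), was 2316, 1904 and 3117 in naive WT and 450, 452 and 453 in activated WT cells. The log2 difference was -2.44 ± 0.16 (SE; edgeR adjusted p = 6.67e-09). In KO cells it went from 1931, 2590 and 2262 CPM to 504, 563 and 557 CPM, a log2 difference of -2.06 ± 0.15 (edgeR adjusted p = 3.47e-08). All activated libraries lie far below all naive ones.

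Other small-subunit genes followed. Rps7 went from 1871, 1773 and 3204 CPM in naive WT to 694, 668 and 647 CPM in activated WT cells (log2 difference -1.77 ± 0.22, SE). Rps21 went from 1116, 1004 and 1520 CPM to 366, 363 and 361 CPM (-1.74 ± 0.13). Naive WT 3 is the highest library for these genes, and the lowest naive WT library still lies above every activated WT library. Rps14 (-1.56 ± 0.20), Rps15a (-1.51 ± 0.12), Rps16 (-1.48 ± 0.09) and Rps24 (-1.36 ± 0.10) had the next largest falls of the small subunit, with edgeR adjusted p-values from 4.22e-11 for Rps16 to 2.10e-05 for Rps14. In the large subunit, Rpl30 (-1.51 ± 0.15), Rpl13a (-1.44 ± 0.19) and Rpl12 (-1.36 ± 0.15) fell most. Rps6 went from 2422, 2338 and 2771 CPM in naive WT to 1484, 1288 and 1289 CPM in activated WT cells (-0.89 ± 0.08, edgeR adjusted p = 1.71e-08).

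The stalk proteins P0, P1 and P2, which form the flexible arm of the large subunit that recruits elongation factors, all fell in WT cells but unequally. Rplp0 went from 5072, 5535 and 6884 CPM to 4338, 4332 and 4440 CPM (log2 difference -0.42 ± 0.10, SE). Rplp1 differed by -0.92 ± 0.14 and Rplp2 by -0.90 ± 0.07. In KO cells the log2 differences were -0.25 for Rplp0, -0.60 for Rplp1 and -0.64 for Rplp2, and all 3 passed the edgeR test. For Rplp0 (adjusted p = 0.0248) the KO difference was -0.16 without naive KO 2 (adjusted p = 0.130), and the call was also lost without activated KO 1 (0.0837) or activated KO 2 (0.0633). Rplp0 and Rpsa, which encodes a small-subunit protein also known as the laminin receptor, had the most counts of any member in naive WT cells (5831 ± 941 and 4547 ± 710 CPM, SD, n = 3) and in activated WT cells (4370 ± 60.5 and 3306 ± 90.4 CPM), with no correction for transcript length. After these came Rplp1, Rps3 and Rpl13a in naive WT cells, and Rps2, Rpl4 and Rpl3 in activated WT cells.

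Only Rps27l, Rpl7l1 and Rps2 rose on activation in WT cells by this test. Rps27l (chr9:66944624-66949522) is the paralogue of Rps27. It went from 22.3, 19.6 and 32.8 CPM in naive WT to 136, 157 and 158 CPM in activated WT cells (log2 difference 2.62 ± 0.17, SE; edgeR adjusted p = 1.24e-08), and from 22.4, 29.8 and 30.6 CPM to 142, 171 and 178 CPM in KO cells (2.57 ± 0.17). Counts of Rps27l were 0.952%, 1.02% and 1.04% of the summed counts of the pair in naive WT and 23.2%, 25.8% and 25.9% in activated WT libraries. In KO cells the share went from 1.15%, 1.14% and 1.34% to 22.0%, 23.3% and 24.2%. In each genotype every activated library lies above every naive library by this measure.
Rps27 and Rps27l lie on different chromosomes, and the stretches before the annotated starts used here differ in the motifs searched. The 250 bases before each annotated start follow, with matches to 6 motifs in capitals (CREB site TGACGTCA and its 5-base piece TGACG, ETS motif CCGGAAG, YY1 motif AAGATGGC, SP1 motif GGGCGG and the TATA box TATAAA, searched on each strand).
Rps27: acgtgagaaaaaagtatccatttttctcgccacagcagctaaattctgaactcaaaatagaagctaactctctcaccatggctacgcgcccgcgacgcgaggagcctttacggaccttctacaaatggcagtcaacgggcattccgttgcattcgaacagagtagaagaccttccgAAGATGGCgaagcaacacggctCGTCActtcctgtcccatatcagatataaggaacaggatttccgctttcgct
Rps27l: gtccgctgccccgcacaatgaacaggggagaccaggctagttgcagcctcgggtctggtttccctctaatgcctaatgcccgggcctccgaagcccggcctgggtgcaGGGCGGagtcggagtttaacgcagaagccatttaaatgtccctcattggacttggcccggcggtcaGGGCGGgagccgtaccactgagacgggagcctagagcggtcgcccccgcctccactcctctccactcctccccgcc
The Rps27 promoter (chr3:90213649-90213898, minus strand) holds AAGATGGC 74 bases before the start and a TGACG on the opposite strand 52 bases before it. The Rps27l promoter (chr9:66945836-66946085, plus strand) holds GGGCGG at 142 and at 76 bases before the start. The annotated span of Rps27l begins further upstream (chr9:66944624), so this stretch lies within the annotated gene. A match is a description of the letters and shows no binding.

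Rpl7l1 encodes a relative of the large-subunit protein L7. It went from 92.9, 102 and 118 CPM in naive WT to 203, 243 and 245 CPM in activated WT cells (log2 difference 1.15 ± 0.10, SE; edgeR adjusted p = 5.10e-09), and its share of the counts of Rpl7 and Rpl7l1 rose from 4.40% ± 0.411 to 12.4% ± 1.47 (SD, n = 3). Rps2, a small-subunit protein near the mRNA entry, went from 1894, 1957 and 2448 CPM to 2987, 2961 and 2969 CPM (0.50 ± 0.10). In KO cells the same 3 genes rose, and Rpl41 (0.44 ± 0.18) and Rpl29 (0.21 ± 0.06) with them. The call of Rpl41 (edgeR adjusted p = 0.0447) was lost without naive KO 1, naive KO 3 or any activated library (adjusted p from 0.0555 to 0.128). In the paralogue pair Rpl22 and Rpl22l1, Rpl22l1 held 20.9% to 22.9% of the pair's counts in naive WT and 22.1% to 24.8% in activated WT libraries, ranges that overlap. The level of Rpl22l1 differed by -0.63 ± 0.23 (edgeR adjusted p = 0.0276), a call lost with the replicate number as a block (adjusted p = 0.0539) and without naive WT 3 (-0.32, adjusted p = 0.0567), activated WT 2 (0.0781) or activated WT 3 (0.0710). Rps4l and Rpl39l, under the limit for membership, had log2 differences of 0.39 ± 0.42 and 0.27 ± 0.53 and did not pass.

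**Figure D2:**
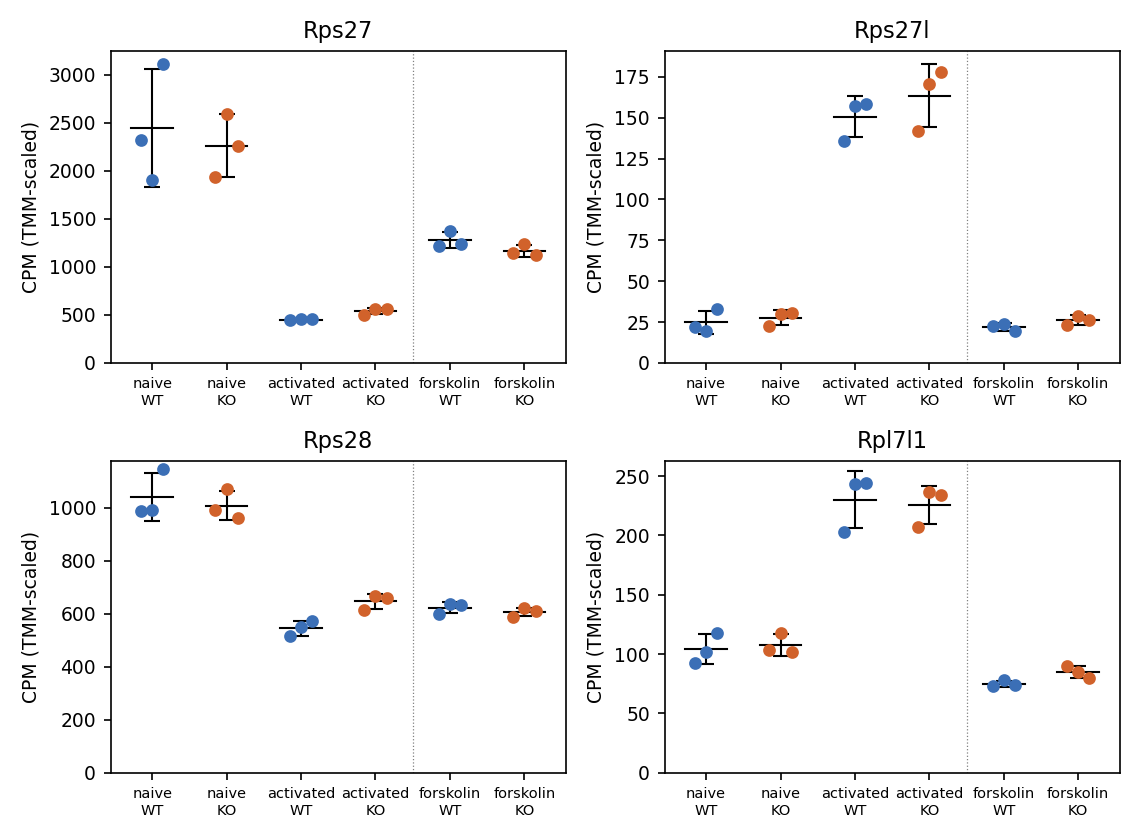
Level of 4 ribosomal protein genes in every RNA library (y axes, TMM-scaled CPM, each from 0; points are libraries, blue WT and orange KO; bars are group mean and SD, n = 3). Rps27 falls from 1904 to 3117 CPM in naive WT to 450 to 453 CPM in activated WT cells while Rps27l rises from 19.6 to 32.8 CPM to 136 to 158 CPM; forskolin libraries, right of the dotted line, were scaled separately.

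In KO cells 63 members fell and 5 rose on activation, against 39.8% and 42.3% of all genes, with a median of -0.54 (log2). All 63 also fell in WT, where Rpl14, Rpl6 and Rpl22l1 were called in addition, so the shared genes are 95.5% of the WT and 100% of the KO calls. The 2 activation differences, which share no library, ordered the members alike (Pearson r = 0.996 and Spearman rho = 0.991 over 79 genes, which share libraries and are not independent replicates). For 77 of the 79 members the KO estimate lay above the WT estimate, against 51.3% of all genes. The test of that difference, the genotype by activation interaction in edgeR, called 0 members (3.70% of all genes). An unadjusted p under 0.05 was found for 8 of 79 members and for 1855 of all 11980 genes tested. DESeq2 called 1 and limma-voom 0. The median interaction was 0.21 (log2) and ranged from 0.077 without naive WT 3 to 0.31 without naive KO 2.

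**Figure D3:**
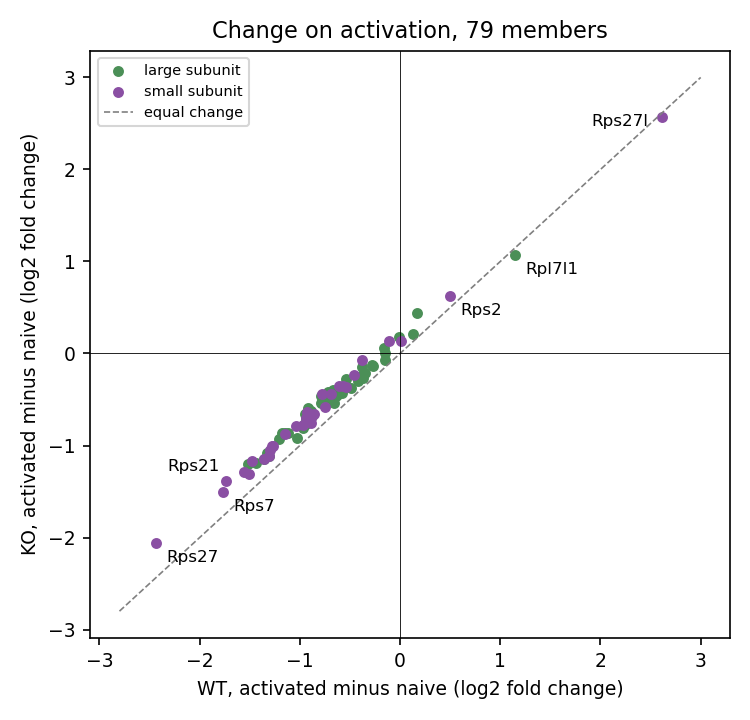
Log2 difference between activated and naive cells in WT (x axis) and KO (y axis) for the 79 members (points; green large subunit, purple small subunit), with the line of equal change dashed. Rps27 sits at -2.44 and -2.06 and Rps27l at 2.62 and 2.57, and 77 of 79 points lie above the line.

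In activated cells, nearly every ribosomal protein gene had a slightly higher level in KO than in WT libraries. The estimate was positive for 78 of 79 members, against 52.8% of all genes. Its median was 0.17 (log2), with a range from -0.03 (Rpl7l1) to 0.30 (Rpl36a), against a median of 0.014 over all genes. In 69 of 79 members every KO library lay above every WT library, and in 0 every KO library lay below, against 18.9% and 19.7% of all genes. The shared fit called 1 member, Rps28, against 14.9% of all genes called in either direction and 5.89% called higher (9.04% lower). An unadjusted p under 0.05 was found for 17 of 79 members and for 3312 of all 11980 genes tested.

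How many members were called depended on the libraries in the fit. With the 6 activated libraries alone, a fit chosen after the data were seen, edgeR called 62 of 79 members higher and 0 lower, against 9.31% of all genes called higher. The median was 0.17 in either fit, while the median SE was 0.037 there and 0.099 in the shared fit, which estimates the spread over naive libraries as well. The shared fit without naive WT 3 and naive KO 2 called 51 members higher (7.90% of all genes). Leaving out naive WT 3 alone gave 16, and naive KO 2 alone 3.

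Rps28, a small-subunit protein at the mRNA exit (chr17:33823036-33824562), held 516, 549 and 571 CPM in activated WT and 614, 665 and 661 CPM in activated KO cells. The log2 difference was 0.25 ± 0.08 (SE; edgeR adjusted p = 0.0343), with no overlap of the groups. The call was lost without activated WT 1 (adjusted p = 0.128), activated WT 2 (0.0864), activated KO 2 (0.130) or activated KO 3 (0.125), and was kept with the replicate block (0.0275), with DESeq2 (0.0151) and with limma-voom (0.0249). In naive cells Rps28 was at 988, 991 and 1146 CPM in WT and 992, 1070 and 962 CPM in KO, with overlapping groups. Its promoter, over which an accessible site lies, holds TGACG 41 bases before the start, in capitals in the 250 bases before it (chr17:33824563-33824812, minus strand).
Rps28: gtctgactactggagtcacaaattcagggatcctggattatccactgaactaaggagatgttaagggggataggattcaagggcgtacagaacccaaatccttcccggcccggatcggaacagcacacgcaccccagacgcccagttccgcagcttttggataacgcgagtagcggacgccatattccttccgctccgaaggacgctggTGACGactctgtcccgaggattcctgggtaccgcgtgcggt

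Rpl36a had the largest estimate, at 476, 466 and 464 CPM in activated WT and 559, 584 and 587 CPM in activated KO cells (0.30; edgeR adjusted p = 0.292). Rps20 was at 1237, 1201 and 1171 CPM in WT and 1438, 1472 and 1456 CPM in KO (0.27; adjusted p = 0.121). Rps27 was at 450 to 453 CPM in WT and 504 to 563 CPM in KO (0.26; adjusted p = 0.292). These groups do not overlap, and in the activated libraries alone Rps20 (adjusted p = 0.000278) and Rpl36a (adjusted p = 0.000321) had the smallest edgeR p-values of all members. The 10 members whose genotypes overlapped were Rpl4, Rpl5, Rpl6l, Rpl7l1, Rpl17, Rpl22l1, Rpl27, Rps6, Rps27a and Rps27l. The paralogues Rps27l (0.12 ± 0.15, adjusted p = 0.664) and Rpl7l1 (-0.03 ± 0.09, adjusted p = 0.893), which rose on activation, are among them.

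Taken by replicate number, the KO share of the activated libraries exceeded the WT share by 0.984, 1.25 and 1.40 percentage points within numbers 1, 2 and 3. The call count with the number as a block was also 1. Beside this difference, the summed B cell markers were higher in activated KO (160 to 188 CPM) than in activated WT libraries (103 to 127 CPM), with Pax5 at 0 in all activated KO libraries, and the summed CD4 T cell markers were lower (2290 to 2357 against 2610 to 2755 CPM). The part of these cells in the result was not tested.

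In naive cells no member was called between genotypes by edgeR in either direction (0.242% of all genes), and DESeq2 and limma-voom also called 0. None had an unadjusted p under 0.05, against 592 of all 11980 genes tested. No member's groups were apart, against 4.24% of all genes higher and 4.10% lower. Estimates ranged from -0.12 (Rps27a) to 0.17 (Rps27l), with a median of -0.04. That median was 0.086 without naive WT 3 and -0.14 without naive KO 2, so its sign followed single libraries. Rps27 shows the spread: its level was 1904 to 3117 CPM in naive WT and 1931 to 2590 CPM in naive KO cells.

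After rest in IL-7 and forskolin, the genotypes differed little in these genes. The median difference was -0.01 (log2), 5 members were higher in KO and 5 lower, against 19.7% and 18.8% of all 11658 genes tested there. Among those higher were Rps27l (0.25 ± 0.10, SE), Rpl7l1 (0.18 ± 0.06), Rpl10a (0.12 ± 0.03) and Rps2 (0.10 ± 0.03). Lower were Rps27 (-0.13 ± 0.05), Rps21 (-0.13 ± 0.04), Rps29 (-0.10 ± 0.04), Rps24 (-0.10 ± 0.03) and Rps4x (-0.09 ± 0.03). The edgeR adjusted p-values of these genes lay between 0.00521 (Rps21) and 0.0441 (Rps29). The 3 members that rose on activation in WT cells are among the 5 that were higher here. For Rps2 the call was lost without forskolin WT 1 (edgeR adjusted p = 0.0809), WT 2 (0.0571) or KO 3 (0.112). For Rpl7l1 it was lost without forskolin WT 1 (0.0545) or KO 1 (0.0902).

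Rps27l was at 22.6, 24.1 and 19.2 CPM in forskolin WT and 23.1, 28.9 and 26.4 CPM in forskolin KO cells, and the groups overlap. Its share of the pair's counts was 1.82%, 1.72% and 1.53% in WT and 1.98%, 2.28% and 2.31% in KO, without overlap, far under the share in activated cells. Rpl7l1 was at 73.4, 78.0 and 73.7 CPM in WT and 89.6, 85.3 and 79.9 CPM in KO, without overlap. Rps21 was at 735, 769 and 754 CPM in WT and 661, 706 and 698 CPM in KO, also without overlap. The call of Rps27l was lost with DESeq2 (adjusted p = 0.150), with limma-voom (0.0501) and without forskolin WT 1 (0.0774), WT 3 (0.256), KO 2 (0.234) or KO 3 (0.112). Each of the 5 lower calls was lost without at least 1 library. For Rps27 the difference was -0.07 without forskolin WT 2 (adjusted p = 0.188), and its call was also lost without WT 3, KO 1 or KO 3, with DESeq2 (0.152), limma-voom (0.143) and upper-quartile scaling (0.0620). For Rps29 the difference was -0.07 without WT 2 (0.249) and -0.06 without KO 1 (0.274). The call of Rpl10a was kept without any single library. Leaving out 1 library gave between 1 higher call (without forskolin WT 1) and 7 (without forskolin WT 2), and between 0 lower calls (without forskolin KO 1) and 5. Without forskolin KO 3 there were 3 calls in each direction.

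**Figure D4:**
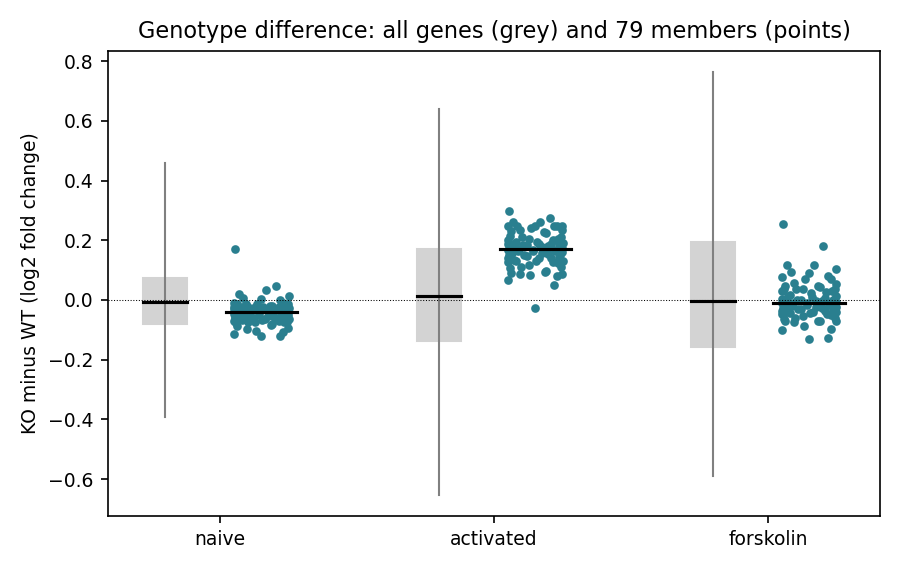
KO minus WT log2 difference in naive, activated and forskolin cells (x axis) for the 79 members (points, median as a line) beside all genes tested (grey box from the 25th to the 75th percentile, line from the 5th to the 95th, median in black). In activated cells 78 of 79 members lie above 0 around a median of 0.17, and in naive and forskolin cells the medians are -0.04 and -0.01.

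Ribosomal protein genes outside the symbol pattern moved with the members on activation. Of the 5 genes tested, all fell in WT cells, with a median of -1.03. They include Fau, which encodes a small-subunit protein fused to a ubiquitin-like protein, Rack1 (a small-subunit scaffold), Rps3a1 and Rpl36al. Fau went from 1611, 1611 and 2037 CPM to 775, 693 and 709 CPM (-1.27 ± 0.09, SE). In activated cells all 5 were at a higher level in each KO library than in any WT library (18.9% of all genes), with differences of 0.15 (Rpl36al) to 0.18 (Rps3a1). By edgeR 0 of them were called (14.9% of all genes), with 0 at an unadjusted p under 0.05 (3312 of 11980 genes). After forskolin Rpl36al was higher in KO (0.10 ± 0.04) and Fau and Rps3a1 lower (-0.10 ± 0.03 each).

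Most genes of ribosome assembly, of the mitochondrial ribosome and of translation initiation rose on activation in WT cells. Over all genes, 42.3% rose and 40.3% fell. Of 39 ribosome biogenesis genes, 37 rose in WT cells and 0 fell (median 1.39), among them Nolc1 (2.09 ± 0.08, SE), Ncl (1.96 ± 0.06) and Nop56 (1.91 ± 0.07), which act in the nucleolus. Of 77 mitochondrial ribosomal protein genes tested, 71 rose and 2 fell (median 0.98), with Mrps10 at 2.15 ± 0.09. Of 27 initiation factor genes, 19 rose and 5 fell (median 0.86), with Eif1a at 1.88 ± 0.08 and the helicase gene Eif4a1 at 1.35 ± 0.07. Elongation factors were divided, with 3 of 7 up and 3 down: Eif5a rose by 2.18 ± 0.09 and Eef1a1, whose mRNA carries the pyrimidine tract, fell (-0.81 ± 0.09). Of 22 other mRNAs known to carry the tract, some of them also among the elongation factors and the genes outside the pattern, 7 rose and 11 fell (median -0.21). Of 19 genes that control ribosomal protein synthesis 7 rose, led by p with Myc (2.86 ± 0.09), and 9 fell (36.8% and 47.4%). The counts of the elongation and control lists lie near the shares over all genes.

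Between genotypes in activated cells, biogenesis genes had a median of 0.009 (0 called by edgeR, 2 of 39 at an unadjusted p under 0.05) and initiation factors -0.02 (0 called, 2 of 27 at an unadjusted p under 0.05). Over all genes 5.89% were called higher and 9.04% lower, and 3312 of 11980 had an unadjusted p under 0.05. Mitochondrial ribosomal protein genes had a median of 0.056, with 1 called, Mrpl2 (0.25 ± 0.07). The other tract mRNAs had a median of 0.12, with 21 of 22 estimates positive (52.8% of all genes). In 15 of these 22 every KO library lay above every WT library, and in 1 every KO library lay below. Over all genes these were 18.9% and 19.7%. The single call among them, Vim, was lower (-0.26 ± 0.07). Of the 19 controlling genes 2 were lower in activated KO cells (10.5%, near the 9.04% of all genes). These were Myc, at 555, 503 and 501 CPM in WT and 390, 371 and 382 CPM in KO (-0.45 ± 0.08, edgeR adjusted p = 0.00105), and Larp4 (-0.25 ± 0.06). After forskolin, 37 of 39 biogenesis genes were higher in KO and 1 lower, against 19.7% and 18.8% of all genes (median 0.70, with Rrp12 at 1.77 ± 0.09), while the members had 5 calls in each direction. Vim (1.78 ± 0.10), Myc (1.42 ± 0.13) and Larp4 (0.37 ± 0.05), lower in activated KO cells, were higher in forskolin KO cells. Of the 19 controlling genes 6 were higher and 6 lower there. No test set these lists against each other.

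**Figure D5:**
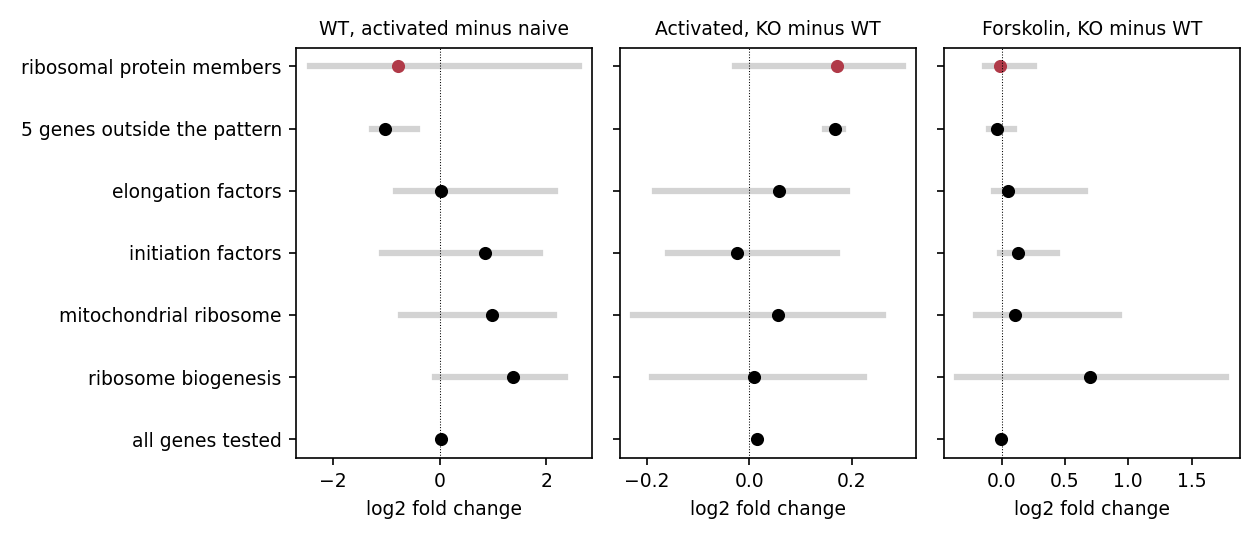
Median (points) and range (grey bars, not drawn for all genes) of the log2 difference in 6 lists of translation genes and in all genes tested, for activation in WT, KO minus WT in activated cells and KO minus WT after forskolin (x axes). On activation the members (red, median -0.78) and the 5 genes outside the pattern (-1.03) sit below 0 and biogenesis genes (1.39) above it.

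Accessible sites lay over the start of nearly every member with an annotated promoter. The ATAC libraries held 18522373 to 25318916 counts in sites. Of the 58 members in the promoter table, 57 had a deposited ATAC site that overlaps the 300 bases around the start. These sites held 320 to 3134 counts per library in naive and 353 to 2816 in activated cells, and their median rank was at the 95.4th and 95.9th percentile of all 110808 sites. By the false discovery rate in the authors' deposited table, none (0) of the 57 sites differed between genotypes in either state, with 0 at an unadjusted deposited p under 0.05, against 0.0171% of all sites in naive and 5.16% in activated cells.

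The number of sites called differed between the authors' deposited test and edgeR. With library sums in place of TMM, edgeR called 50 of the 57 sites in activated cells. The authors' deposited table gives a fold not scaled to library size. edgeR with TMM on the deposited counts called 41 of 57 sites more open in activated KO cells and 0 less open, against 15.1% of all sites called more open, with differences from 0.02 (Rps27l) to 0.26 (Rpl37a) and a median of 0.16 (log2). Over 10170 sites at any gene's start the median was 0.084 and 29.2% were called more open. The site at Rps28 held 955, 914 and 843 counts in activated WT and 952, 890 and 942 in activated KO libraries, which overlap before scaling, and differed by 0.17 ± 0.04 after it (edgeR adjusted p = 0.00514). The site at Rps27 held 1021, 1030 and 953 counts in WT and 1029, 977 and 1032 in KO (0.15 ± 0.04, adjusted p = 0.0113), and that at Rps27l 1141, 1154 and 966 in WT and 1010, 951 and 1055 in KO (0.02 ± 0.04, adjusted p = 0.769). In naive cells edgeR called 0 of 57 (2.10% of all sites), with a median of -0.049, against -0.046 over the sites at any gene's start. Whether the shift at these starts belongs to scaling was not tested.

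The full CREB site TGACGTCA, the sequence bound by the transcription factor that protein kinase A phosphorylates, was present in 5 of 69 member windows (7.25%) and in 1.79% of windows of all genes. The members were Rps9, Rpl18, Rpl27a, Rpl13 and Rpl26. Each is shown in 40 bases on the gene's strand from RefSeq on GRCm38.p6, with the site in capitals, since this motif is tied to the kinase that the labels name.
Rps9: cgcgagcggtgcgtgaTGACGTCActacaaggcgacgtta
Rpl18: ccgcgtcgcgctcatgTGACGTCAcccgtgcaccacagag
Rpl27a: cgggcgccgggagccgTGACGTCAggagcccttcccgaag
Rpl13: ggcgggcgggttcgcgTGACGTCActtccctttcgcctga
Rpl26: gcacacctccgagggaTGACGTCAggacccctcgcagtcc
The site begins 57 bases before the start in Rps9 (chr7:3703968-3704007), 79 in Rpl18 (chr7:45717976-45718015), 97 in Rpl27a (chr7:109519082-109519121), 24 in Rpl13 (chr8:123102310-123102349) and 134 in Rpl26 (chr11:68901416-68901455). The annotated spans of Rps9 (from chr7:3703954) and Rpl18 (from chr7:45715467) begin further upstream, so their sites lie within the annotated genes. These 5 members and the other members in the table had the same median genotype difference in activated cells, 0.17 (log2), and medians on WT activation of -0.73 with and -0.88 without the site. The 5-base piece TGACG, which the full site contains, was present in 46.4% of member windows and 20.8% of all. CCGGAAG was present in 34.8% against 8.86%, AAGATGGC in 11.6% against 2.75% and GGGCGG in 62.3% against 35.7%, while TATAAA was present in 8.70% against 13.6%. The 6 members with AAGATGGC, Rps27 among them, had a median WT activation difference of -1.29 and the others -0.77. With and without the motif, these medians were -0.79 and -0.79 for TGACG, and -0.89 and -0.79 for CCGGAAG. They were -0.79 and -0.89 for GGGCGG, and -0.67 and -0.88 for TATAAA. No test was made of these shares or medians.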

How the data were processed

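RNA-seq was made in 18 libraries and ATAC-seq in 12, per the labels from total RNA with a NEBNext kit and with an Active Motif kit, on mm10 per the submitters' processing notes. The aligner, counter and peak caller are not given in the sources used here. The deposited RNA tables hold whole-number counts per gene, not scaled. The deposited ATAC tables hold counts per site, log2 group means and a log2 fold not scaled to library size, and the authors' p-value and false discovery rate (Benjamini-Hochberg adjusted p-value), from a test that is not given in the sources used here. Features without a symbol (0.128% to 0.159% of counts in the naive and activated table) were left out.

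RNA counts were tested with edgeR 4.0.16 in R 4.3.3 (filterByExpr, TMM, robust quasi-likelihood, Benjamini-Hochberg over all genes, threshold 0.05), with 1 fit for the 12 naive and activated libraries and another for the 6 forskolin libraries. Levels are TMM-scaled CPM, scaled within each table, so forskolin levels are not tested against the others. A count of 0 allows up to 3 counts, 0.251 to 0.391 CPM by library, for counting error only. Tested on simulated data for the activated comparison (11688 genes), the fit recovered 94 of 100 genes changed by 1 and 67 of 100 changed by 0.5 on the log2 scale, and called 10 of 11488 unchanged genes. No 2 libraries agreed within sampling noise.

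Same-numbered libraries deviated together in activated cells (correlations of deviations 0.557, 0.280 and 0.236), and the number was used as a block. Activated WT 3 correlated more with activated KO 2 than with activated KO 3. The labels give no reason for a pairing, and replicate 1 had Ddx3y in each genotype. Whether the numbers pair libraries beyond sex was not tested. In naive cells the correlations were 0.409, 0.004 and 0.040 and in forskolin cells 0.161, 0.078 and 0.217. Alternatives were other scalings and filters, DESeq2 1.42.0, limma-voom (limma 3.58.1), a stricter threshold, a replicate block and leaving out each library. The 6 activated or 6 naive libraries alone, and the fit without naive WT 3 and naive KO 2, were added after seeing the data.

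The members, lists and tests were chosen with earlier results of these data known. Genes were named by rule: per comparison the 10 largest changes in each direction among members called, the 5 members with most counts, paralogues with their parent gene, ribosomal protein genes outside the pattern, symbols next to the limit, Prkaca, Rps6 and the stalk genes, and of each other list the 4 smallest p-values, of which some are printed. Single values of 2 genes under this rule are not reported here. Rpl36a, Rps20, Rps26, Rpl7a, Rps12, Rpl37a, Rpl14, Rpl6 and the members whose genotypes overlapped were named after their values were seen. Promoter sequences are from RefSeq, GRCm38.p6, with 21 members not matched.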

Additional observations from a re-analysis of the deposited data

How the results depend on the processing

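No named gene of the RNA comparisons changed its direction past the test under any alternative run. For the share of counts such a change could not be called, as its smallest exact permutation p is 0.1. Some ATAC sites at member starts were slightly lower in activated KO cells by the authors' fold and called more open by edgeR. That at Rpl34 was at -0.02 by the authors' fold and 0.11 by edgeR (adjusted p = 0.0281). The number of members higher in activated KO cells, 1 in the shared fit, was 13 with upper-quartile scaling, 5 with DESeq2, 2 with limma-voom, 2 with no filter on low counts and 0 at a threshold of 0.01. It was 62 with the activated libraries alone, 51 without naive WT 3 and naive KO 2, and 0 to 16 when single libraries were left out. The interaction count of 0 became 1 with DESeq2 and 2 without those naive libraries, and its median ranged from 0.077 to 0.31 over single libraries left out. The number higher on activation in KO, 5, was 8 without those naive libraries and 4 to 8 over single libraries. The naive genotype median ranged from -0.14 to 0.086. After forskolin the count of 5 higher became 9 with upper-quartile scaling, 8 with limma-voom, 2 at 0.01 and 1 to 7 over single libraries. The count of 5 lower became 2 with upper-quartile scaling, 2 with no filter, 1 at 0.01 and 0 to 5 over single libraries. The replicate block moved 5 higher forskolin calls to 8, where same-numbered libraries share a number and the sex marked by Ddx3y. It changed no other count of members by more than 1.5 times. Of the sites at member starts in activated cells, edgeR called 41 with TMM and 50 with library sums, against 0 by the authors' deposited false discovery rate. The cause of these differences was not tested.

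Over 81 pairs of a named gene and a comparison, 70 values under the settings other than those added later were no longer past the threshold, 8 were newly past it and 1533 did not change side. The share of counts kept its direction in activated cells (ratio 1.13 to 1.15) and on activation (0.603 to 0.689 in WT, 0.708 to 0.775 in KO) over single libraries left out, and did not in naive cells (0.933 to 1.07).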
